A study of Huso dauricus with 9 samples.

Results

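Transcripts of the gut of kaluga sturgeon (Huso dauricus) were compared between day 14 and day 30 after release into a river. The comparison used 6 of the 9 libraries of the series, 3 at each time, each taken as 1 fish. The libraries were chosen by their labels alone: D14FL names gut after 14 d of stock enhancement and D30FL gut after 30 d. Transcripts were compared on log2(FPKM + 1), where FPKM is a fragment level scaled by transcript length and library size. All 59331 assembled transcripts were measured. Of these, 54200 reached 1 FPKM in at least 3 of the 9 libraries and were tested. For description by gene and by pathway, a transcript also needed a Swiss-Prot protein match and a mean of at least 5 FPKM in D14FL or D30FL, and the most abundant transcript stood for each protein entry, which left 7718 transcripts. A mean of 5 was reached in both groups by 6748 of them, in D14FL only by 444 and in D30FL only by 526.

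Kaluga is a large sturgeon of the Amur and its tributaries, and hatchery fish are released to rebuild wild stocks. The series asked how such a release bears on the health of the intestine. Marked fish were let go into the Songhua River and recaptured by seine net. Each library is taken below as a separate fish, and no genotype, strain or age was given in the labels. A group taken at release (Ori, 0 d, 3 fish) is not compared here, but its levels are set beside those of the later groups. It also entered the 1 FPKM filter and the shared estimate of spread behind each SE and p-value. Every D14FL and D30FL fish had been transported, marked and released, and no fish held in the hatchery to the same date are among the samples. Time since release, calendar date, water temperature, food and any library batch therefore cannot be told apart.

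The intestine digests and absorbs food across the brush border, a carpet of microvilli that carries peptidases and glycosidases in its membrane. In fish larvae and in the hind gut of many fishes, enterocytes also take up whole proteins by endocytosis and break them down in lysosomes, where cathepsins cut proteins and glycosidases take sugars off glycans. The exocrine pancreas supplies trypsin, chymotrypsin, lipases and amylase, and endocrine cells of the pancreatic islets and of the gut wall make peptide hormones such as insulin and somatostatin.

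The 3 fish at day 30 differed from one another more than the 3 fish at day 14. The median standard deviation within a group was 0.56 log2 units in D30FL and 0.42 in D14FL over the tested transcripts. D30FL 2 and D30FL 3 were more than 1 log2 unit apart in 42.4% of tested transcripts, against 24.5% for D14FL 2 and D14FL 3. In 51.0% of them D30FL 1 lay between the other D30FL fish. On the principal component with the largest share of variance, the day 30 libraries D30FL 2 and D30FL 3 took the extremes at 158.8 and -127.2, and D30FL 1 lay at -5.2. The D14FL libraries lay at -23.4, -63.0 and 60 on the same axis. Results are therefore given fish by fish, in the order 1, 2 and 3 within each group. The read depth behind the FPKM is unknown, and between 42228 and 49503 transcripts reached 1 FPKM in a library of these groups. Transcripts with a fish protein as best match held between 53.5% and 59.5% of the summed FPKM in the 6 libraries. Sums by taxonomic class of the match could not be shown to differ or not to differ, since 3 against 3 cannot give an exact permutation p under 0.1 (two-sided). The reptile or amphibian class reached that p = 0.1 in the exact permutation test, with all 3 D30FL sums above all 3 D14FL sums and a ratio of means of 1.12 (Benjamini-Hochberg adjusted p = 0.7 over 7 classes).

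**Figure D1:**
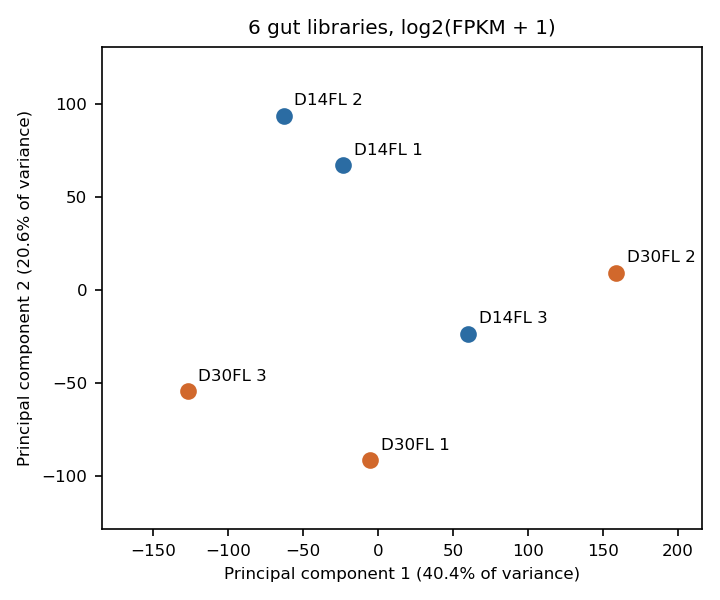
Position of the 6 gut libraries on principal components 1 (x axis, 40.4% of variance) and 2 (y axis, 20.6%) of log2(FPKM + 1) over the tested transcripts, D14FL in blue and D30FL in orange. D30FL 2 and D30FL 3 take the ends of component 1, D30FL 1 has the lowest value of component 2 at -91.6, and D14FL 1 and D14FL 2 lie highest on it at 67.0 and 93.7.

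A single transcript passed the test between the times. It was lower at day 30, with 38.5, 17.8 and 30.1 FPKM in D14FL and 0.392, 0.0372 and 0.0788 FPKM in D30FL, a log2 difference of -4.62 (SE 0.41, adjusted p = 0.006, limma). At release it had stood at 10.2, 4.5 and 9.88 FPKM. The groups did not overlap, and this transcript has no match to any known protein in the deposited annotation, so it cannot be named. It no longer passed when D14FL 1, D14FL 3, D30FL 2 or D30FL 3 was left out, with 0 transcripts called each time, and 2 transcripts passed without D14FL 2. In a fit on the D14FL and D30FL groups alone, without the release fish, 0 transcripts were called. Before adjustment, 2079 of 54200 transcripts (3.84%) had a limma p under 0.05, 893 higher (1.65%) and 1186 lower (2.19%) at day 30. The adjusted test thus called 0.00185% of transcripts lower and 0 higher. Of the 2079, 579 had a Swiss-Prot match. Without overlap, all 3 D30FL fish lay above all 3 D14FL fish for 2076 of 54200 (3.83%) and below them for 2420 (4.46%). Of the 7718 described transcripts, 66 higher (0.855%) and 226 lower ones (2.93%), together 292 (3.78%), had a limma p under 0.05 before adjustment. None of the 7718 passed the adjusted test, and all that follows is a description of levels in 3 fish against 3.

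Among the 7718 described transcripts, all 3 D30FL fish lay above all 3 D14FL fish for 345 (4.47%) and below them for 488 (6.32%). Those percentages are the background for the counts of non-overlapping members given below. With the 6748 that averaged 5 FPKM in both groups they came to 4.02% and 5.6%. The median log2 difference over the 7718 transcripts was 0.00, with quartiles at -0.25 and 0.24. The transcripts described next come from the 15 higher and the 15 lower ones with the smallest p among those without overlap and without a best match outside fish. Their adjusted p was 0.902 for INS, 0.989 for HEBP1 and 1 for the others (limma). In these bulk samples, fewer cells of a type and less RNA per cell cannot be told apart.

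Insulin, the hormone of pancreatic beta cells, headed the higher transcripts. INS stood at 79.1, 40.9 and 36.1 FPKM in D14FL and at 201, 182 and 184 FPKM in D30FL. The lowest day 30 fish had more than the highest day 14 fish, a log2 difference of 1.93 (SE 0.37). At release INS had been at or near 0, with 0.287, 0 and 1.04 FPKM. PENK, the precursor of the enkephalin opioid peptides, was listed at 0.707, 0.415 and 2.33 FPKM in D14FL and at 5.12, 6.22 and 17.2 FPKM in D30FL, a log2 difference of 2.21 (SE 0.50).

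Of 16 measured islet and gut hormone genes, 14 had a log2 difference above 0 and 3 did not overlap, all 3 of them higher at day 30 (INS, PENK and VIP). Their median difference was 0.47, and it was 0.80 without D30FL 3 and 0.31 without D30FL 2. A mean of 5 FPKM at both times was reached by 8 of the 16, of which 2 were higher without overlap. VIP, a neuropeptide that relaxes gut muscle and drives secretion, stood at 21.0, 13.4 and 33.9 FPKM in D14FL and 39.2, 87.5 and 37.4 FPKM in D30FL (log2 difference 1.21, SE 0.64). SST, somatostatin, the general inhibitor of endocrine release, stood at 504, 289 and 560 FPKM and then at 865, 808 and 528 FPKM. GCG, the glucagon precursor, stood at 48.2, 34.0 and 44.5 FPKM and then at 95.8, 102 and 41.1 FPKM. For SST and GCG the D30FL 3 fish lay among the day 14 fish, so the groups overlapped.

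The exocrine pancreas did not separate the times. The summed FPKM of 4 of its markers (CTRB1, CPA1, CPB1 and CEL) was 217, 73.8 and 5110 in D14FL and 2210, 1040 and 476 in D30FL. The day 14 fish thus held both the lowest and the highest value. TRY1, a trypsin, followed the same order with 416, 51.4 and 5820 FPKM in D14FL and 5120, 1460 and 1100 FPKM in D30FL. CLPS, colipase, the cofactor of pancreatic lipase, stood at 15.3, 13.5 and 561 FPKM and then at 492, 178 and 148 FPKM. Of 19 pancreatic digestive enzymes, 17 had a difference above 0 with a median of 1.47, yet 0 of 19 were free of overlap. That median was 3.24 without D14FL 3 and 0.31 without D14FL 2. CEL, bile salt-activated lipase, had 79.7, 44.4 and 1130 FPKM in D14FL and 544, 223 and 160 FPKM in D30FL. By the summed markers, D14FL 3 had the most enzyme transcript of all 6 fish and D14FL 2 the least. INS was lowest in D14FL 3 and next lowest in D14FL 2. The summed FPKM of 3 islet markers (INS, GCG and SST) was 631, 364 and 640 in D14FL and 1160, 1090 and 753 in D30FL. That sum, of which INS is a part, did not overlap between the times, while GCG and SST, its other members, each overlapped. At release, with INS at or near 0, the sum had been 739, 597 and 560. The part that the amount of pancreatic tissue in each piece of gut plays in the INS difference was not tested.

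An enzyme and a transporter, ODC1 and SLC51B, were also higher without overlap. ODC1, ornithine decarboxylase, the rate-limiting enzyme of polyamine synthesis, stood at 34.2, 72.6 and 99.0 FPKM in D14FL and 186, 271 and 117 FPKM in D30FL (log2 difference 1.51, SE 0.42). SLC51B, a subunit of the transporter that passes bile salts out of the enterocyte towards the blood, stood at 10.3, 17.5 and 24.9 FPKM and then at 76.4, 45.2 and 33.5 FPKM (log2 difference 1.5, SE 0.42). The D30FL 3 fish was closest to the day 14 group in ODC1 and SLC51B. FABP6, the bile acid binding protein of the ileum, overlapped widely, with 441, 93.5 and 3440 FPKM in D14FL and 1510, 234 and 2660 FPKM in D30FL.

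Several higher transcripts belong to protein folding and ribosome assembly. PDIA6, a disulfide isomerase of the endoplasmic reticulum, stood at 20.4, 20.5 and 29.9 FPKM in D14FL and 68.0, 30.9 and 52.7 FPKM in D30FL. SIL1, the nucleotide exchange factor of the chaperone BiP, stood at 2.87, 3.25 and 1.42 FPKM and then at 15.2, 3.39 and 10.7 FPKM. In both, D30FL 2 exceeded the highest day 14 fish by little. DNAJC21, a co-chaperone in ribosome maturation, had 2.27, 2.84 and 3.45 FPKM and then 12.5, 6.91 and 11.8 FPKM (log2 difference 1.54, SE 0.40). RIOX1, a ribosomal oxygenase, had 4.5, 7.24 and 3.84 FPKM and then 12.0, 11.0 and 10.4 FPKM. Its day 30 fish were close to one another.

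Other higher transcripts covered barrier, signalling and immune functions. CLDN4, a claudin of tight junctions, stood at 13.6, 1.89 and 14.2 FPKM in D14FL and at 19.9, 86.9 and 27.5 FPKM in D30FL, with most of the difference in D30FL 2. CASPA, which in zebrafish is a caspase of inflammasomes, was listed at 0, 0 and 0.123 FPKM in D14FL and at 0.459, 16 and 11.8 FPKM in D30FL. The day 30 fish again differed widely from one another there. RHOF, a small GTPase that builds filopodia, stood at 11.4, 8.41 and 7.75 FPKM and then at 22.9, 20.8 and 14.8 FPKM. The secreted proteins ANGPTL5 and PI16 and the deoxyribonuclease TATDN3 had log2 differences of 1.34, 1.42 and 1.10. PENK, DNAJC21, PI16, CASPA, TATDN3 and SIL1 averaged under 5 FPKM at day 14 and were described because of their day 30 level.

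**Figure D2:**
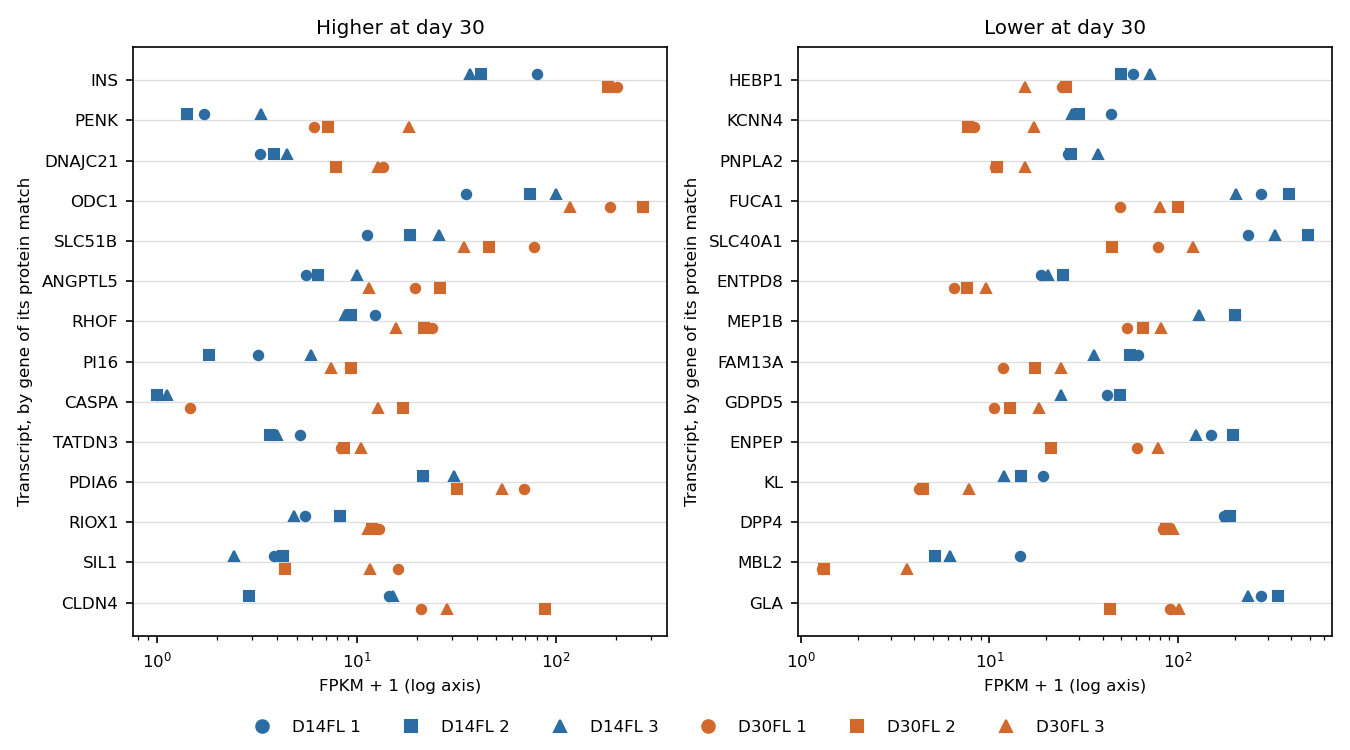
FPKM + 1 on a log x axis of higher (left) and lower (right) transcripts with the smallest p among those without overlap, 1 row each, with D14FL in blue and D30FL in orange and a marker shape for each fish. By the way they were chosen the colours do not overlap in any row. INS lies between 36.1 and 79.1 FPKM in D14FL and between 182 and 201 FPKM in D30FL.

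Among the lower transcripts, membrane enzymes of the brush border and lysosomal glycosidases recurred. DPP4, a brush border peptidase that also inactivates incretin hormones, varied little within each group, with 174, 188 and 181 FPKM in D14FL and 81.9, 85.2 and 93.8 FPKM in D30FL. The day 14 mean was 2.08 times the day 30 mean, a log2 difference of -1.05 (SE 0.28). MEP1B, meprin beta, a metalloprotease of the microvilli, stood at 199, 199 and 128 FPKM and then at 52.9, 64.0 and 80.4 FPKM (log2 difference -1.39, SE 0.33). ENPEP, glutamyl aminopeptidase, stood at 149, 194 and 124 FPKM and then at 60, 20.2 and 77.6 FPKM (log2 difference -1.72, SE 0.44). At release DPP4 had 90.4, 110 and 144 FPKM and MEP1B 126, 80.8 and 141 FPKM, so the day 30 fish overlapped with those at release in DPP4 and lay below them in MEP1B.

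The brush border list as a whole leaned the same way. Of its 21 measured members, 20 had a difference below 0 and 8 lay lower at day 30 without overlap (8 of 8 of them with a mean of at least 5 FPKM at both times), against 6.32% of described and 4.46% of all tested transcripts. The lists of genes named here take every tested member, also those under 5 FPKM. The median was -0.73 and stayed between -0.90 and -0.70 whichever of the 6 libraries was left out. The median member level by library was 0.45, 0.68 and 0.20 in D14FL and -0.49, -0.44 and -0.13 in D30FL, on a log2 scale centred on the 6 libraries, so these medians did not overlap either. ANPEP, aminopeptidase N, the most abundant of the peptidases named here, stood at 318, 394 and 234 FPKM and then at 180, 115 and 222 FPKM. ACE, angiotensin-converting enzyme, stood at 81.0, 109 and 47.8 FPKM and then at 20.7, 9.35 and 61.3 FPKM. GGT1, which splits glutathione, stood at 13.5, 26.7 and 9.34 FPKM and then at 1.67, 1.07 and 10.5 FPKM. For ACE and GGT1 the D30FL 3 fish lay among the day 14 fish, and the log2 differences were -1.66 (SE 0.54) and -2.01 (SE 0.59). MME, neprilysin, another cell surface peptidase and not counted in the list, stood at 112, 101 and 83.5 FPKM and then at 33.5, 33.6 and 59.9 FPKM (log2 difference -1.25, SE 0.33).

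Other brush border genes overlapped. TREH, trehalase, which splits the blood sugar of insects, had 45.9, 54.0 and 28.9 FPKM in D14FL and 17.2, 13.6 and 29.7 FPKM in D30FL. MGAM, which releases glucose from starch, had 172, 90.8 and 72.0 FPKM and then 51.7, 73.7 and 83.8 FPKM. ALPI, intestinal alkaline phosphatase, had a log2 difference of -0.29 (SE 0.40), and VIL1, villin, the actin bundler of the microvillus core, one of -0.59 (SE 0.39). LCT was the single member above 0 and stayed under 2 FPKM in each of the 6 libraries. The summed FPKM of 6 enterocyte markers was 2880, 3420 and 3110 in D14FL and 2610, 1620 and 3730 in D30FL. The markers were FABP2, VIL1, ANPEP, SLC15A1, APOA4 and CDH17, so the sum contains ANPEP and VIL1 named above. It overlapped between the times, and the part of enterocyte content in the brush border difference was not tested.

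Members of the nutrient transporter list were lower as far as they separated. The bile salt transporter subunit SLC51B, outside that list, was higher without overlap, as described above. SLC40A1, ferroportin, the exporter that passes iron from the enterocyte to the blood, stood at 234, 488 and 325 FPKM in D14FL and 77.5, 43.6 and 119 FPKM in D30FL. The day 14 mean was 4.36 times the day 30 mean, a log2 difference of -2.16 (SE 0.50). SLC26A3, the chloride and bicarbonate exchanger of the apical membrane, stood at 107, 109 and 100 FPKM and then at 57.4, 71.6 and 63.0 FPKM (log2 difference -0.72, SE 0.30). At release SLC26A3 had been lower still, at 13.8, 15.5 and 26.9 FPKM. Of 24 nutrient transporters, 21 had a difference below 0. Without overlap, 3 of the 24 were lower (SLC40A1, SLC26A3 and SLC46A1), against 6.32% of described and 4.46% of all tested transcripts. The median was -0.40 and lay between -0.56 and -0.31 when single libraries were left out. The median member level was 0.32, 0.48 and -0.02 in D14FL and -0.34, 0.04 and -0.39 in D30FL, so these medians overlapped. SLC15A1, the peptide transporter PEPT1, had 362, 332 and 138 FPKM and then 146, 317 and 308 FPKM, a log2 difference of -0.07 (SE 1.01). SLC5A1, the sodium-glucose cotransporter, had a log2 difference of -0.63 (SE 0.37). KCNN4, a calcium-activated potassium channel of secretory epithelia, stood at 43.1, 28.8 and 26.4 FPKM and then at 7.31, 6.65 and 16.3 FPKM (log2 difference -1.68, SE 0.37).

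Lysosomal glycosidases lay among the lowest pathways. The deposited annotation assigns 3411 of the 7718 transcripts to KEGG pathways, and 306 pathways held at least 10 of them. Other glycan degradation was the lowest of the 306, with a median log2 difference of -0.92. Without D30FL 2 its median was -0.58, above those of glycosaminoglycan degradation (-0.74) and graft-versus-host disease (-0.80), and without D14FL 2 it was -0.64, again above those sets (-0.71 and -0.87), so its place rests on these fish. All 13 members lay below 0 and 5 of them were lower without overlap. FUCA1, lysosomal fucosidase, stood at 276, 390 and 203 FPKM in D14FL and 48.2, 98.7 and 79.2 FPKM in D30FL (log2 difference -1.94, SE 0.45). NEU1, lysosomal sialidase, had a log2 difference of -1.56 (SE 0.49) and GLB1, beta-galactosidase, one of -1.53 (SE 0.54). Glycosaminoglycan degradation, which shares 3 members with it, followed at -0.76, with all 10 members below 0 and 6 lower without overlap.

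The wider lysosome set, the pathway at place 11 from the lowest median and added here after its values were seen, held 92 members. Of these, 31 lay lower at day 30 without overlap and 0 lay higher without overlap, 76 lay below 0, and the median was -0.38. The summed FPKM of the 92 was 17600, 15800 and 16500 in D14FL, or between 1.72% and 1.92% of all FPKM, and 5930, 7290 and 8890 in D30FL, or between 0.641% and 0.956%. At release the sum had been 19800, 3550 and 5360, so the Ori 1 fish resembled the day 14 fish and the other Ori fish lay under all later ones. CTSL, cathepsin L, made up much of the sum with 7070, 5550 and 7210 FPKM in D14FL and 1290, 750 and 3800 FPKM in D30FL. The release fish held 10000, 530 and 903 FPKM of it.

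Other proteases and hydrolases of the lysosome were ordered alike. LGMN, legumain, an asparaginyl protease, stood at 990, 1040 and 1000 FPKM in D14FL and at 266, 477 and 356 FPKM in D30FL (log2 difference -1.5, SE 0.60). CTSZ, cathepsin Z, stood at 1070, 823 and 880 FPKM and then at 270, 206 and 491 FPKM. GLA, alpha-galactosidase A, stood at 274, 338 and 235 FPKM and then at 89.4, 42.8 and 101 FPKM (log2 difference -1.93, SE 0.51). For all of LGMN, CTSZ and GLA the highest day 30 fish lay under the lowest day 14 fish. The membrane protein LAMP2 had a log2 difference of -1.12 (SE 0.37), and LAMP1 one of -0.17. At the upper end stood AP1M2 and AP1M1, adaptor subunits that sort cargo between the Golgi apparatus and endosomes, with 0.56 and 0.48.

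Among receptors that feed the lysosome, CUBN, cubilin, a large endocytic receptor for proteins and for vitamin B12 with its carrier, stood at 287, 627 and 420 FPKM in D14FL and 235, 47.0 and 268 FPKM in D30FL. Its best match is a bird protein. MRC1, a mannose receptor, stood at 139, 171 and 122 FPKM and then at 41.0, 26.2 and 50 FPKM (log2 difference -1.89, SE 0.65). The groups did not overlap in either gene. Within the list of macrophage and granulocyte genes, the 4 lower members without overlap were CTSL, MRC1, LGMN and CTSB, and the list's median of -0.03 was -0.57 without D30FL 2 and 0.40 without D30FL 3. CSF1R and MPEG1, which mark macrophages more closely, had differences of -0.03 and -0.37 and overlapped. Their summed FPKM was 15.7, 15.4 and 18.7 in D14FL and 11.3, 27.3 and 8.67 in D30FL. Genes of autophagy in the list of autophagy and lysosome lay nearer 0, with BECN1 at -0.06, ATG5 at -0.06 and MAP1LC3A at 0.17, and the 6 members of that list without overlap were lysosomal.

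**Figure D3:**
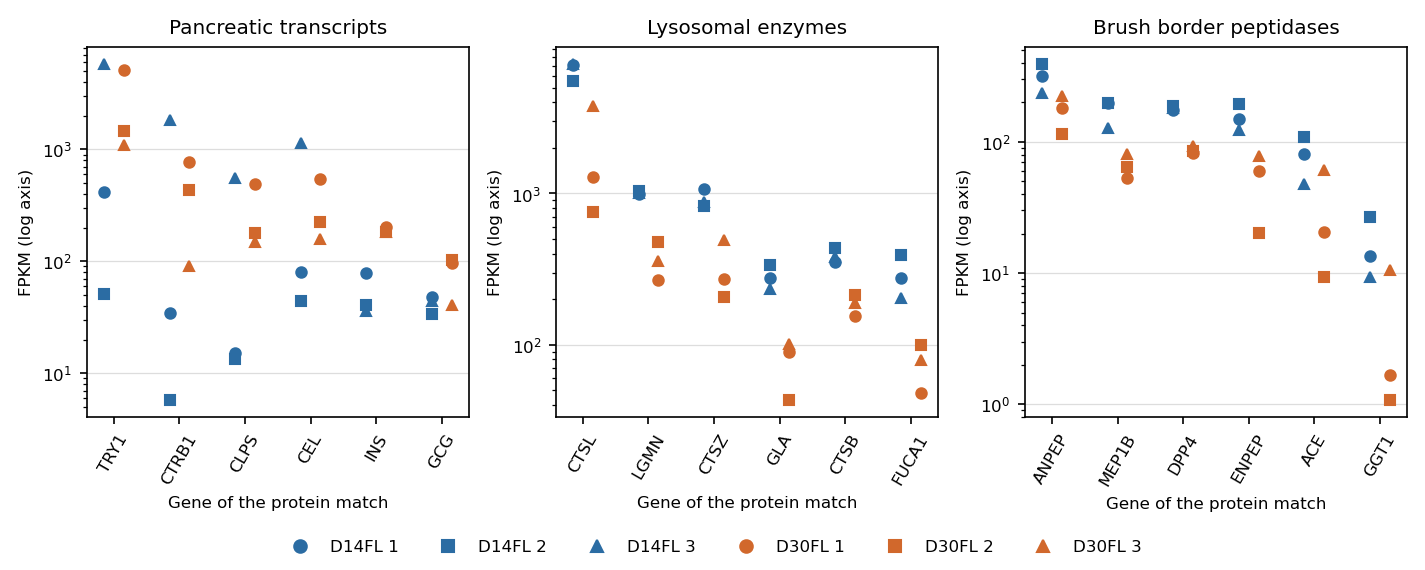
FPKM on a log y axis of 6 pancreatic (left), 6 lysosomal (middle) and 6 brush border (right) transcripts, with 1 point for each fish, D14FL in blue and D30FL in orange. Exocrine enzymes overlap while INS separates upwards. The 6 lysosomal enzymes shown are all ones without overlap, so they separate downwards by the choice. Of the 92 members of the lysosome set, 31 lay lower without overlap. Among the peptidases ACE and GGT1 overlap through D30FL 3.

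Vitamin digestion and absorption was also among the 8 pathways with the lowest medians, at -0.42, with 4 of 17 members lower without overlap (CUBN, TCN2, SLC19A2 and SLC46A1). Without D14FL 2 that median was -0.25. TCN2, the blood carrier of vitamin B12, stood at 314, 259 and 282 FPKM in D14FL and 128, 121 and 178 FPKM in D30FL (log2 difference -1.02, SE 0.34). SLC19A2, a thiamine transporter, stood at 28.5, 55.7 and 28.9 FPKM and then at 28.2, 12.4 and 10.6 FPKM, where D30FL 1 lay just under the lowest day 14 fish.

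Of the 8 lowest pathways, 4 are named for immune diseases and consist mostly of antigen presentation genes. Graft-versus-host disease, allograft rejection, autoimmune thyroid disease and type I diabetes mellitus had medians of -0.71, -0.68, -0.68 and -0.58. They are nearly the same set: allograft rejection and autoimmune thyroid disease share all 15 members, and all 14 members of the graft-versus-host set are in that of type I diabetes. Apart from INS in the diabetes set, the same 1 member of each set was without overlap, near the background of 6.32%. It matched the MHC class I-related protein MR1 (entry HMR1), which in mammals presents small vitamin B metabolites to T cells, and stood at 101, 59.8 and 58.1 FPKM in D14FL and 32.9, 44.5 and 27.3 FPKM in D30FL (log2 difference -1.02, SE 0.32). An MHC class II beta chain (entry DRB4) stood at 179, 111 and 148 FPKM and then at 72.6, 116 and 75.2 FPKM. D30FL 2 lay with the day 14 fish here, and the median member level of the allograft set was -0.50, 0.21 and -0.56 in D30FL against 0.65, -0.02 and 0.41 in D14FL. MHC genes are many and alike, and reads may be split among copies.

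Interferon response and antigen presentation genes leaned lower, most of them with overlap. All 25 measured members had a log2 difference below 0, with a median of -0.48 that lay between -0.54 and -0.30 (without D14FL 1) when single libraries were left out, and 5 did not overlap. A mean of 5 FPKM at both times was reached by 15 of the 25, and 1 of these was without overlap. XAF1, an interferon-induced promoter of apoptosis, stood at 9.46, 2.76 and 2.7 FPKM in D14FL and 0.686, 1.59 and 1.17 FPKM in D30FL. B2M, the light chain of MHC class I, stood at 1220, 865 and 764 FPKM and then at 556, 662 and 793 FPKM. MX1, an antiviral GTPase, stood at 9.95, 3.28 and 5.49 FPKM and then at 1.23, 1.58 and 28.6 FPKM, so that D30FL 3 had the highest value of the 6. T cell markers (CD3E, LCK and ZAP70) summed to 15.4, 7.75 and 7.56 FPKM in D14FL and 6.33, 6.0 and 11.3 FPKM in D30FL, and their part in these levels was not tested. CCL20, a chemokine that draws lymphocytes and dendritic cells to mucosa, stood at 106, 73.5 and 39.0 FPKM and then at 29.3, 24.4 and 26.4 FPKM (log2 difference -1.30, SE 0.57). IL1B, the inflammatory cytokine interleukin 1 beta, overlapped at 0.999, 1.01 and 3.95 FPKM and then 3.73, 13.9 and 0.873 FPKM.

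Lipid and sugar metabolism gave single genes rather than shared directions. PNPLA2, adipose triglyceride lipase, which starts the breakdown of stored fat, stood at 25.2, 26.0 and 36.5 FPKM in D14FL and 9.75, 9.97 and 14.4 FPKM in D30FL (log2 difference -1.29, SE 0.30). G6PC, glucose-6-phosphatase, the last step of glucose release, stood at 168, 250 and 95.5 FPKM and then at 16, 93.7 and 52.5 FPKM (log2 difference -1.85, SE 0.55). PCK1, the enzyme that commits to gluconeogenesis, lay the other way with 5.67, 8.65 and 8.78 FPKM and then 13.8, 69.3 and 14.9 FPKM (log2 difference 1.57, SE 0.54). At release G6PC had 4.35, 7.02 and 5.33 FPKM and PCK1 0.396, 1.23 and 0.444 FPKM, far under both later groups. The median difference was -0.01 for 25 genes of glycolysis and gluconeogenesis and ranged from -0.11 to 0.05 when single libraries were left out. It was -0.02 for 25 genes of fatty acid oxidation and ketogenesis (-0.15 without D14FL 3 to 0.01 without D30FL 2). For 29 genes of fatty acid and sterol synthesis it was -0.06, with -0.39 without D30FL 1 and 0.26 without D14FL 3, so its sign rests on single fish. ACSL5, which activates long-chain fatty acids, was higher without overlap, at 20.7, 43.9 and 40.6 FPKM and then 87.0, 77.9 and 79.9 FPKM. Lipid uptake and lipoprotein assembly had a median of -0.21 over 27 genes, and -0.13 without D30FL 1.

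Other lower transcripts span heme, nucleotide and immune proteins. HEBP1, a heme-binding protein, stood at 57.1, 49.1 and 70.4 FPKM in D14FL and at 23.4, 24.4 and 14.5 FPKM in D30FL (log2 difference -1.48, SE 0.31). ENTPD8, which breaks down extracellular nucleotides, stood at 17.8, 23.7 and 19.4 FPKM and then at 5.49, 6.62 and 8.6 FPKM. KL, klotho, a co-receptor for fibroblast growth factors in mineral balance, stood at 18.3, 13.7 and 10.9 FPKM and then at 3.24, 3.44 and 6.76 FPKM. Each of the day 30 fish lay clearly under the day 14 fish in these genes. MBL2, a lectin that triggers complement, stood at 13.6, 4.13 and 5.2 FPKM and then at 0.295, 0.329 and 2.67 FPKM. FAM13A and GDPD5 had log2 differences of -1.54 and -1.44. KL and MBL2 averaged under 5 FPKM at day 30 and were described because of their day 14 level.

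Plasma proteins made by the liver were present at low levels and leaned lower. Of 22 measured, 19 lay below 0 and 4 were lower without overlap, with a median of -0.54, and -0.86 without D30FL 2. A mean of 5 FPKM at both times was reached by 7 of the 22, and 0 of these were without overlap. HPX, hemopexin, the scavenger of heme in blood, stood at 13.2, 8.92 and 2.88 FPKM in D14FL and 1.43, 1.58 and 2.17 FPKM in D30FL. The summed FPKM of 5 hepatocyte markers was 46.3, 35.6 and 11.6 in D14FL and 11.5, 60.5 and 8.31 in D30FL, so it overlapped, and its part in the difference was not tested.

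At the other end of the 306 pathways stood sets of ribosome assembly and transcription. Ribosome biogenesis in eukaryotes had the highest median, 0.35, with 47 of 56 members above 0. Of the 56, 3 were higher without overlap (XPO1, RIOK1 and NXT2), near the background of 4.47%. Among members with a mean of 5 FPKM at both times it was 2 of 52, near the 4.02% of all such transcripts. XPO1, the exportin that carries ribosomal subunits and proteins out of the nucleus, stood at 11.2, 17.1 and 17.3 FPKM in D14FL and 26.9, 33.9 and 25.0 FPKM in D30FL (log2 difference 0.89, SE 0.33). EMG1, an rRNA methyltransferase, stood at 14.9, 22.6 and 14.8 FPKM and then at 39.4, 20.4 and 34.0 FPKM, where D30FL 2 lay within the day 14 range. Without D30FL 1 that median was 0.23 and without D30FL 2 it was 0.59. RNA polymerase had a median of 0.28 over 25 members and 4 higher without overlap, or 3 of the 21 with a mean of 5 FPKM at both times. That median was 0.16 without D30FL 1, 0.48 without D30FL 2 and 0.18 without D30FL 3. POLR1A, the largest subunit of the polymerase that transcribes rRNA, stood at 3.57, 3.56 and 3.25 FPKM and then at 7.12, 4.79 and 5.28 FPKM. It averaged under 5 FPKM at day 14 and was counted because of its day 30 level. In both pathways the D30FL 2 fish had the lowest median level of the day 30 fish, -0.18 and -0.11, and the other day 30 fish lay between 0.29 and 0.42.

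Ribosomal proteins were higher by small amounts in many genes. The KEGG set Ribosome held 119 members, of which 102 lay above 0, 25 were higher without overlap and 0 were lower without overlap, with a median of 0.21. That median was 0.10 without D14FL 3 and 0.12 without D30FL 3. That is 25 of 119 against 4.47% of described transcripts, though its members are expressed together and are not independent. RPS12, a protein of the small subunit, stood at 680, 906 and 671 FPKM in D14FL and 1160, 995 and 1190 FPKM in D30FL (log2 difference 0.57, SE 0.37). MRPL33, of the mitochondrial large subunit, had the smallest p of the set with 19.1, 19.2 and 20.9 FPKM and then 33.0, 31.8 and 31.4 FPKM (log2 difference 0.68, SE 0.26). The summed FPKM of the set overlapped, at 125000, 134000 and 100000 in D14FL and 137000, 124000 and 151000 in D30FL, and no member passed the adjusted test.

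**Figure D4:**
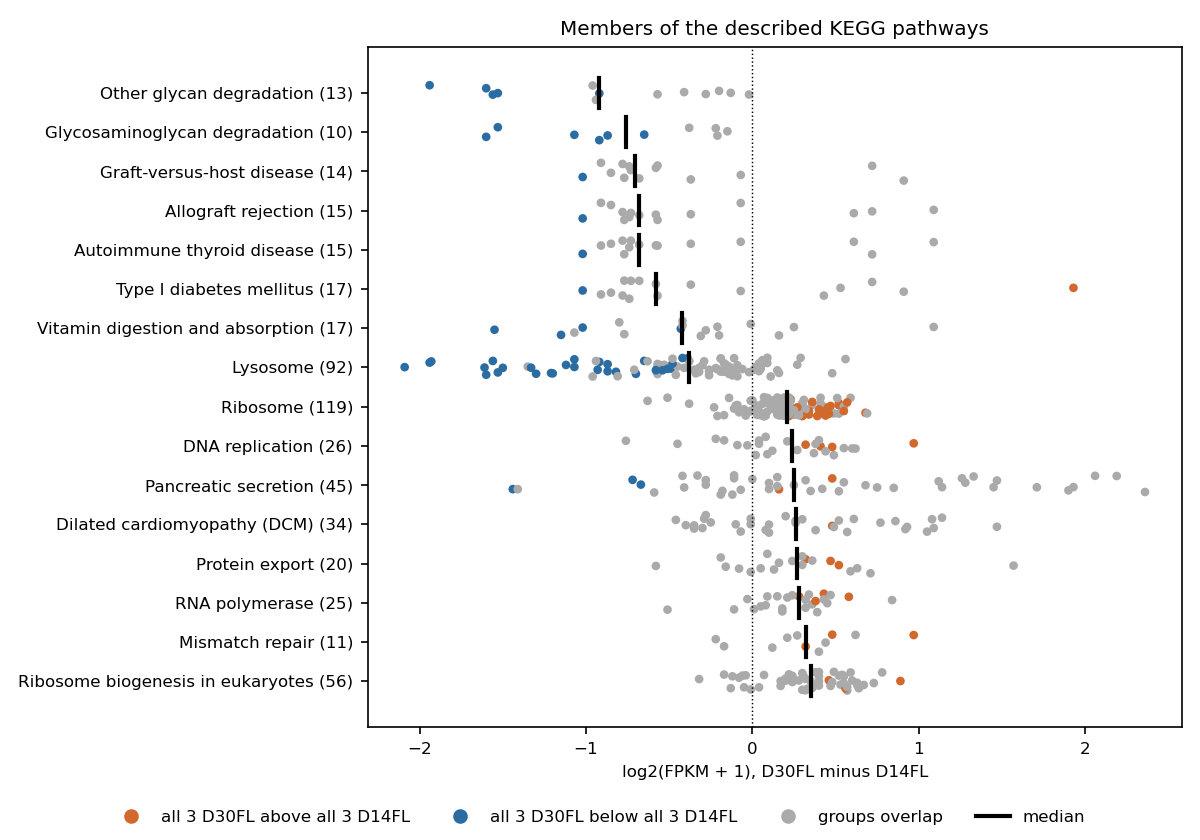
Log2 difference D30FL minus D14FL (x axis) of each member of described KEGG pathways with the lowest and the highest medians, and of Lysosome, with the number of members in brackets. Points are transcripts, orange where all 3 D30FL lie above all 3 D14FL, blue where they lie below and grey where the groups overlap, and the black line is the median. Blue points gather in the glycan and lysosome sets and orange points in Ribosome.

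Export of proteins into the endoplasmic reticulum and their folding pointed upwards with a strong part of D30FL 1. Protein export had a median of 0.27 (0.16 without D14FL 1, 0.14 without D14FL 2 and 0.18 without D30FL 1), with 3 of 20 members higher without overlap (SEC61B, SEC61G and SRP54, by their matches). HSPA5, the chaperone BiP, stood at 39.0, 66.8 and 46.1 FPKM in D14FL and 345, 56.0 and 166 FPKM in D30FL (log2 difference 1.57, SE 0.55), so the groups overlapped through D30FL 2. DNAJB11, a co-chaperone of BiP, stood at 10.1, 19.7 and 23.2 FPKM and then at 36.8, 29.8 and 29.1 FPKM. Of 28 heat shock and endoplasmic reticulum chaperone genes, 21 lay above 0, 4 were higher without overlap (PDIA6, DNAJB11, HYOU1 and BAG3) and 1, HSF2, was lower. Their median was 0.41, and it was 0.08 without D30FL 1, 0.20 without D14FL 1 and 0.68 without D30FL 2.

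DNA replication and mismatch repair, whose 11 members all belong to the former, had medians of 0.24 and 0.32. POLD3, a subunit of the replicative polymerase delta, stood at 2.79, 2.29 and 3.33 FPKM in D14FL and 6.56, 6.9 and 5.75 FPKM in D30FL (log2 difference 0.97, SE 0.34). It too averaged under 5 FPKM at day 14. Among members with a mean of 5 FPKM at both times, 3 of 22 in DNA replication and 2 of 10 in mismatch repair were higher without overlap. The mismatch repair median was 0.51 without D30FL 2 and 0.20 without D30FL 3. The median level of the DNA replication set was 0.14, -0.40 and 0.61 in D30FL, so the day 30 fish took both extremes. Its median difference was -0.10 without D30FL 3, with the opposite sign, 0.15 without D30FL 1 and 0.47 without D30FL 2. Of 37 cell cycle genes, 2 were higher without overlap (TYMS and CCNE1), and neither is among the 13 with a mean of 5 FPKM at both times. MKI67, the proliferation marker, had 0.579, 0.594 and 0.972 FPKM in D14FL and 0.543, 0.643 and 1.36 FPKM in D30FL, under the 3.51, 3.48 and 4.56 FPKM at release.

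Pancreatic secretion and dilated cardiomyopathy completed the 8 highest pathways, with medians of 0.25 and 0.26. The former was 0.14 without D14FL 1, 0.13 without D14FL 2, 0.44 without D14FL 3 and 0.49 without D30FL 3. The latter was 0.04 without D14FL 2, 0.47 without D14FL 3 and 0.16 without D30FL 1. Pancreatic secretion contains the digestive enzymes described above, and its members without overlap were 2 higher and 3 lower ones, none of them a digestive enzyme. Dilated cardiomyopathy contains contractile proteins, and 1 of its 34 members was without overlap. Smooth muscle genes had a median difference of 0.57 with 21 of 22 above 0, of which MYLK and LMOD1 did not overlap, and that median was 0.25 without D14FL 2 and 0.90 without D14FL 3. LMOD1, leiomodin, an actin nucleator of smooth muscle, stood at 7.38, 8.84 and 9.54 FPKM in D14FL and 26.3, 13.9 and 21.4 FPKM in D30FL. CNN1, calponin, stood at 16.9, 6.86 and 143 FPKM and then at 119, 134 and 30.2 FPKM. The summed FPKM of 4 smooth muscle markers was 311, 210 and 706 in D14FL and 444, 468 and 641 in D30FL. That sum thus varied among fish of the same day. The part that the amount of muscle wall in each sample plays in the difference was not tested. Skeletal muscle markers (CKM, TNNI2 and MYLPF) stayed below 1 FPKM in all 6 libraries.

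Stress genes did not separate the times. DDIT4, an inhibitor of growth signalling that stress hormones induce, stood at 274, 99.8 and 271 FPKM in D14FL and 137, 306 and 126 FPKM in D30FL, a log2 difference of -0.16 (SE 0.44, 95% interval from the limma fit -1.13 to 0.81). At release it had 3.25, 2.71 and 3.31 FPKM. FKBP5, which binds the glucocorticoid receptor and is induced by it, stood at 27.9, 36.3 and 62.1 FPKM and then at 20.5, 70.6 and 20.3 FPKM. In both genes D30FL 2 had the highest value of the 6 fish. Of 20 genes of the glucocorticoid and acute stress list, 0 were without overlap, and the median difference of 0.30 was 0.88 without D30FL 3, 0.59 without D14FL 3, 0.08 without D14FL 1, 0.10 without D14FL 2, -0.05 without D30FL 2 and -0.03 without D30FL 1. EGR1, an immediate early gene, illustrates the spread with 13.1, 4.77 and 42.7 FPKM and then 195, 25.5 and 5.37 FPKM.

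The median level of each list by fish sets D30FL 2 and D30FL 3 apart within their group. Relative to the mean of the 6 libraries, amino acid breakdown genes stood at 0.78 in D30FL 2 and -0.41 in D30FL 3. Macrophage and granulocyte genes stood at 0.64 and -0.55, circadian clock genes at 0.45 and -0.68, and cell cycle genes at -0.30 and 0.77. In none of these lists did the day 30 fish lie on 1 side of the day 14 fish. Lists whose 3 day 30 medians lay below all 3 day 14 medians were brush border, interferon response and mucus and goblet cells. The list of islet and gut hormones lay above in the same way. Mucus and goblet cell genes had a median of -0.34. Of their 17 members, 1 was lower without overlap, near the background of 6.32%, and 0 of the 16 with a mean of 5 FPKM at both times. Their summed FPKM overlapped, at 2700, 2330 and 1100 in D14FL and 1210, 957 and 1730 in D30FL. MUC2, the main gel-forming mucin of the intestine, stood at 75.1, 82.5 and 136 FPKM in D14FL and 111, 37.8 and 75.4 FPKM in D30FL.

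**Figure D5:**
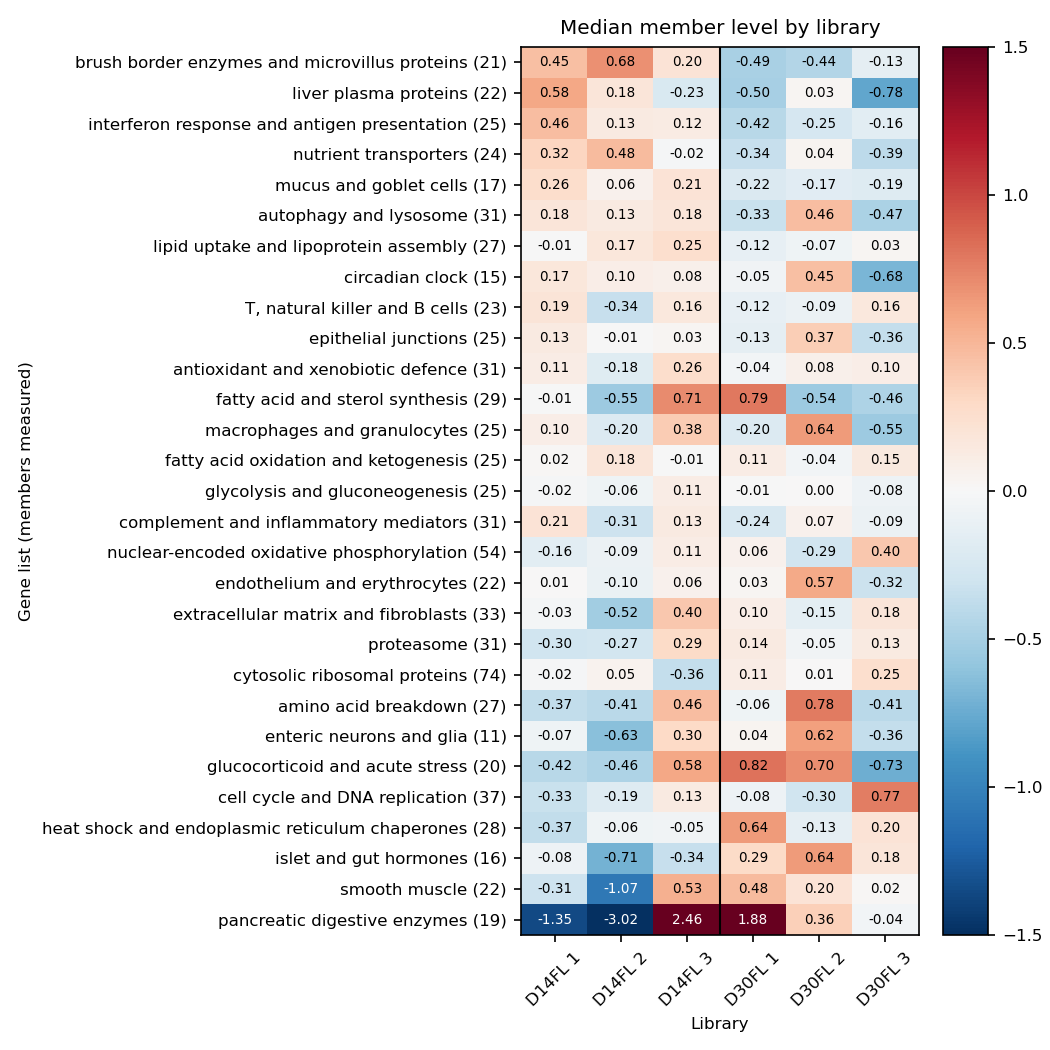
Median log2(FPKM + 1) of the members of 29 gene lists in each of the 6 libraries, centred for each member on the mean of the 6 (colour and printed value), with the number of members in brackets and lists ordered by their median difference. Brush border genes are above 0 in all 3 D14FL columns and below 0 in all 3 D30FL columns, while the pancreatic row ranges from -3.02 to 2.46 within D14FL alone.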

How the data were processed

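Gut poly(A) RNA was sequenced in 9 libraries, in 3 groups of 3 (Ori, D14FL and D30FL), with oligo(dT) selection and a digested second strand per the labels' protocols. The authors deposited 1 table of FPKM per assembled transcript, a unit that rests on the name of that table, since its library columns name no unit. How fragments were assigned to transcripts is not given in the sources used here. Cutadapt 1.9 appears in the submitters' processing notes, as does mm10, a mouse build, whose role for a sturgeon is not explained there. Read depth cannot be recovered from FPKM, so no counting intervals are given.

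Transcripts with at least 1 FPKM in 3 of the 9 libraries were tested on log2(FPKM + 1), a scale that understates changes of low genes, with limma 3.58.1 in R 4.3.3 (lmFit, contrasts, eBayes with trend). All 9 libraries shared 1 estimate of spread, with 6 residual and 5.73 prior degrees of freedom, and p-values were adjusted by Benjamini-Hochberg over all 54200 transcripts and called under 0.05. The p-values set the difference between the times against the spread between libraries within groups, each library taken as 1 fish. Described transcripts had a Swiss-Prot match and a mean of at least 5 FPKM in D14FL or D30FL. Pathways with at least 10 of these were ranked by median, and the 8 at each end described. The 30 gene lists held 1019 symbols, of which 802 were tested. Named genes were the 15 higher and 15 lower with the smallest p among those without overlap and without a best match outside fish, up to 4 members of each pathway or list, the 5 smallest p in each direction among transcripts matched outside fish, and DDIT4, INS and CEL. Some items that these rules select are not reported here. Other genes named, such as AP1M2, SST, GCG, MX1 and MUC2, were chosen after their values were seen. The members and lists were chosen with earlier results of these data known. Figures and summaries used Python 3.11.15, pandas 2.3.3, numpy 2.4.6, scipy 1.17.1 and matplotlib 3.10.9. The fit was tested on simulated data with 50 changed transcripts at each size. It called 0% of log2 changes of 1 and 34% of changes of 2. Of changes of 3 and 4 it called 78% and 88%. Alternatives changed the pseudocount, filter, scaling, variance model, libraries and replicate block.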

Additional observations from a re-analysis of the deposited data

How the results depend on the processing

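The number of transcripts called was 1 under a pseudocount of 0.1, no filter, a mean filter of 5 FPKM, median-of-ratios scaling, quantile normalization, no trend, and an adjusted p under 0.1. It was 0 with a pseudocount of 0.01 (1701 at an unadjusted p under 0.05, limma) and 0 in a fit on the 2 groups alone (2148). The mean filter left 1138 transcripts at an unadjusted p under 0.05 of 23872 tested, against 2079 of 54200. Library weights called 6462 and put 17007 under an unadjusted 0.05, with weights of 10.729 for D30FL 1, 0.297 for D30FL 2 and 0.427 for D30FL 3. The weight estimate stopped before convergence, and this count is not used. Leaving out single libraries gave 0 to 2 calls and 1433 to 4247 transcripts at an unadjusted p under 0.05, the highest counts being 4247 without D30FL 2 and 3559 without D30FL 3. The cause was not tested.

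Replicate numbers do not pair the fish, which differ between times: same-numbered deviations correlated at -0.022, -0.22 and -0.315. With the replicate block, 1 transcript was called and 1789 had an unadjusted p under 0.05.

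DDIT4 changed sign when D14FL 1, D14FL 3, D30FL 1 or D30FL 3 was left out (0.08, 0.07, 0.01 and 0.07), and CEL without D14FL 2 (-0.16). Of the pathway medians under alternatives, 362 stayed within the spread, 1 of them with a changed sign, and 12 moved. Of the list medians, 606 stayed within the spread, 29 of them with a changed sign, and 24 moved, 2 with a changed sign. A median within the spread thus did not always keep its direction. Leaving out transcripts without a fish match was added after seeing the data. It moved 1 median of 47, that of skeletal muscle, to 0.36. The 3 fish at each time and an unknown read depth limit what could be detected.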

Other observations

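Some transcripts whose best protein match lies outside fish also separated the times. The transcript matched to human ALDH1A1, a retinal dehydrogenase, was listed at 4.89, 7.07 and 3.51 FPKM in D14FL, at 2.16, 0 and 0 FPKM in D30FL and at 0 in all release fish. The transcript matched to mouse MUP1, a major urinary protein, stood at 11.8, 15 and 15.3 FPKM in D14FL, at 1.79, 7.55 and 0.0749 FPKM in D30FL and at 2.2, 1.16 and 0.426 FPKM at release. Neither passed the adjusted test (adjusted p = 1, limma), and the origin of these transcripts was not tested. CALM2, calmodulin, whose best match is an invertebrate protein, stood at 126, 109 and 161 FPKM in D14FL and 243, 191 and 234 FPKM in D30FL, so the groups did not overlap (log2 difference 0.76, SE 0.30). ASNS, asparagine synthetase, matched to a reptile protein, stood at 24.8, 42.3 and 43.8 FPKM and then at 122, 62.3 and 55.5 FPKM, again without overlap (log2 difference 1.04, SE 0.45).

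Many of the transcripts that differed before adjustment cannot be named. Of the 2079 transcripts with an unadjusted limma p under 0.05, 1500 had no Swiss-Prot match and 1356 had no match in either protein database, where 32407 of the 54200 tested transcripts lacked a Swiss-Prot match. B cell markers (CD79A, CD79B and IGHM) summed to 51.3, 12.1 and 136 FPKM in D14FL and 180.0, 72.8 and 77.1 FPKM in D30FL, and the groups overlapped.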
